A study of Mus musculus with 10 samples.

Results

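Glycolysis was followed through 10 genes in mouse liver: the hexokinases Hk1 and Hk2, the regulatory protein Gckr, the phosphofructokinases Pfkl, Pfkm and Pfkp, and the later enzymes Tpi1, Pgk1, Pgam1 and Ldha. The genes were taken by name, with earlier results of these data known. Every array probe annotated to 1 of these symbols and to no other gene was used. All 10 genes had such a probe, 12 probes in all, out of 36088 tested probes and 18012 genes with a tested single-gene probe. Tpi1 and Ldha had 2 probes each, and 1 more probe shared between Pgam1 and another gene was not used. Livers of 5 mice injected with an antisense oligonucleotide (ASO) against the liver microRNA miR-122 were set against livers of 5 mice injected with saline, with 1 single-channel CodeLink array per mouse. The ASO, a 2′-O-methoxyethyl phosphorothioate RNA, was given into the peritoneum in doses of 50 mg/kg over 4 weeks, with 2 injections each week, and saline followed the same schedule. Both groups were killed 2 days after the last injection. The labels name male C57Bl/6 mice for the ASO group and give no sex, strain or age for the saline group, and no age for the ASO group. No oligonucleotide of another sequence was among the groups, so blocking miR-122 and carrying this chemistry cannot be told apart.

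Glycolysis splits glucose into pyruvate in the cytosol. A hexokinase traps glucose as its phosphate, phosphofructokinase commits the sugar to breakdown, and the lower enzymes harvest ATP and NADH before lactate dehydrogenase turns pyruvate into lactate. Gckr is a regulatory protein of the first step in hepatocytes, and Pfkl is their main phosphofructokinase. Pfkm is the muscle form and Pfkp the platelet form. Liver can run most of these steps backwards to make glucose, so Tpi1, Pgk1 and Pgam1 serve both directions.

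The stretches before the transcription starts of Pfkl, Tpi1, Pgam1 and Ldha, the members with an unadjusted p under 0.05 between the groups, are shown because glycolytic genes are known for sites of the hypoxia-inducible factor there. Each is the 250 bases before the RefSeq start on build GRCm38.p6, read 5′ to 3′ on the strand of the gene, with the letters ACGTG or their reverse complement in capitals. Pfkl lies at chr10:78009808-78010057 on the minus strand, Tpi1 at chr6:124814159-124814408 on the minus strand, Pgam1 at chr19:41911621-41911870 on the plus strand and the first Ldha window at chr7:46845554-46845803 on the plus strand.
Pfkl: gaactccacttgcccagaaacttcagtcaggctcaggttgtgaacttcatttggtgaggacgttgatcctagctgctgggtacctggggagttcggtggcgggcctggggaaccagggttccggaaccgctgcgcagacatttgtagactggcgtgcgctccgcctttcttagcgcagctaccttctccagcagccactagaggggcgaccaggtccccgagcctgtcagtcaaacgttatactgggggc
Tpi1: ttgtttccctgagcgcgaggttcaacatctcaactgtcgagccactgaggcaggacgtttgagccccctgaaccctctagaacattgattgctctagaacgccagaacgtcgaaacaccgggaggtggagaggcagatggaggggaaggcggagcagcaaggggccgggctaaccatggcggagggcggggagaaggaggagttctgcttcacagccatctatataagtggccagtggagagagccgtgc
Pgam1: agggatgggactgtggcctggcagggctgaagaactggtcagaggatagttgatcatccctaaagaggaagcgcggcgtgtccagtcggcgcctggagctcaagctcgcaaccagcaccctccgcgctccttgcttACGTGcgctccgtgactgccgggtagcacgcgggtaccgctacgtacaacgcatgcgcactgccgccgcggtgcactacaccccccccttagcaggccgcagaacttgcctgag
Ldha: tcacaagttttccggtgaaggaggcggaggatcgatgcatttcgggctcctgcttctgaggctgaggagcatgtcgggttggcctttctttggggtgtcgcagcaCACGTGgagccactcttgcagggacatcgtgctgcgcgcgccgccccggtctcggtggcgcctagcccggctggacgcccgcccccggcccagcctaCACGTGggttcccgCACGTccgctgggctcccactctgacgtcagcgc

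Both strands were searched, and overlapping matches were counted as 1. The Ldha window held 3 matches, starting 145, 48 and 34 bases before the start, the Pgam1 window held 1, at 114 bases, and the Pfkl and Tpi1 windows held none. Of the 15 windows of the 10 genes 6 held a match (40.0%), in Hk2, Pfkm, Pgk1, Pgam1 and Ldha, against 16.6% of 32851 windows of all genes. The GC box GGGCGG, a common Sp1 site, was in 5 of the 15 windows (33.3%) and in 32.7% of all windows. These matches describe the letters only, and binding was not measured.

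Intensities had array medians of 1.03 to 1.05 and are given as log2 values, with a floor at -2.38 below which no order is read. The number of arrays limits the precision. Saline replicate 1 stood apart at the bright end, with a highest value of 9.08 against 10.23 to 11.19 on the other arrays. Results of several genes are therefore also given without it. Hepatocyte markers were bright on every array (5 of 6 measured, summed log2 level 11.03 to 12.39 in saline and 12.17 to 12.65 in ASO), with Alb between 8.89 and 10.67. In whole liver, fewer cells of a type and less RNA per cell cannot be told apart.

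None of the 12 probes passed the adjusted threshold of 0.05 in limma with Benjamini-Hochberg adjustment over all probes, where 23 of 36088 probes did (0.0637%). At an unadjusted p under 0.05 there were 4 of the 12 (33.3%), Pfkl, Tpi1 and Pgam1 lower and Ldha higher in ASO livers, against a background of 11.2% of all probes (6.66% lower and 4.58% higher). All 10 genes lay above the median level, where the background was 14.1%. This count was 2 without saline replicate 2, saline replicate 3 or ASO replicate 1, and 1 without ASO replicate 3. The groups did not overlap for 1 of the 12 probes, that of Pfkl (8.33%), against 2.37% of all probes (1.43% with ASO lower). The genes were chosen with earlier results of these data known, so shares above the background are not independent support for a change. Taking the brighter probe of each gene, 8 of the 10 genes had a lower and 2 a higher mean in ASO livers. Of all 18012 genes 9893 were lower and 8119 higher, and of the 18044 probes above the median level 10811 were lower and 7233 higher. The median log2 fold change of the 10 genes was -0.15, beside -0.04 over all genes and -0.08 over the probes above the median level. Hk1 and Hk2, counted among the lower ones, turned to 0.06 each under quantile normalization.

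**Figure D1:**
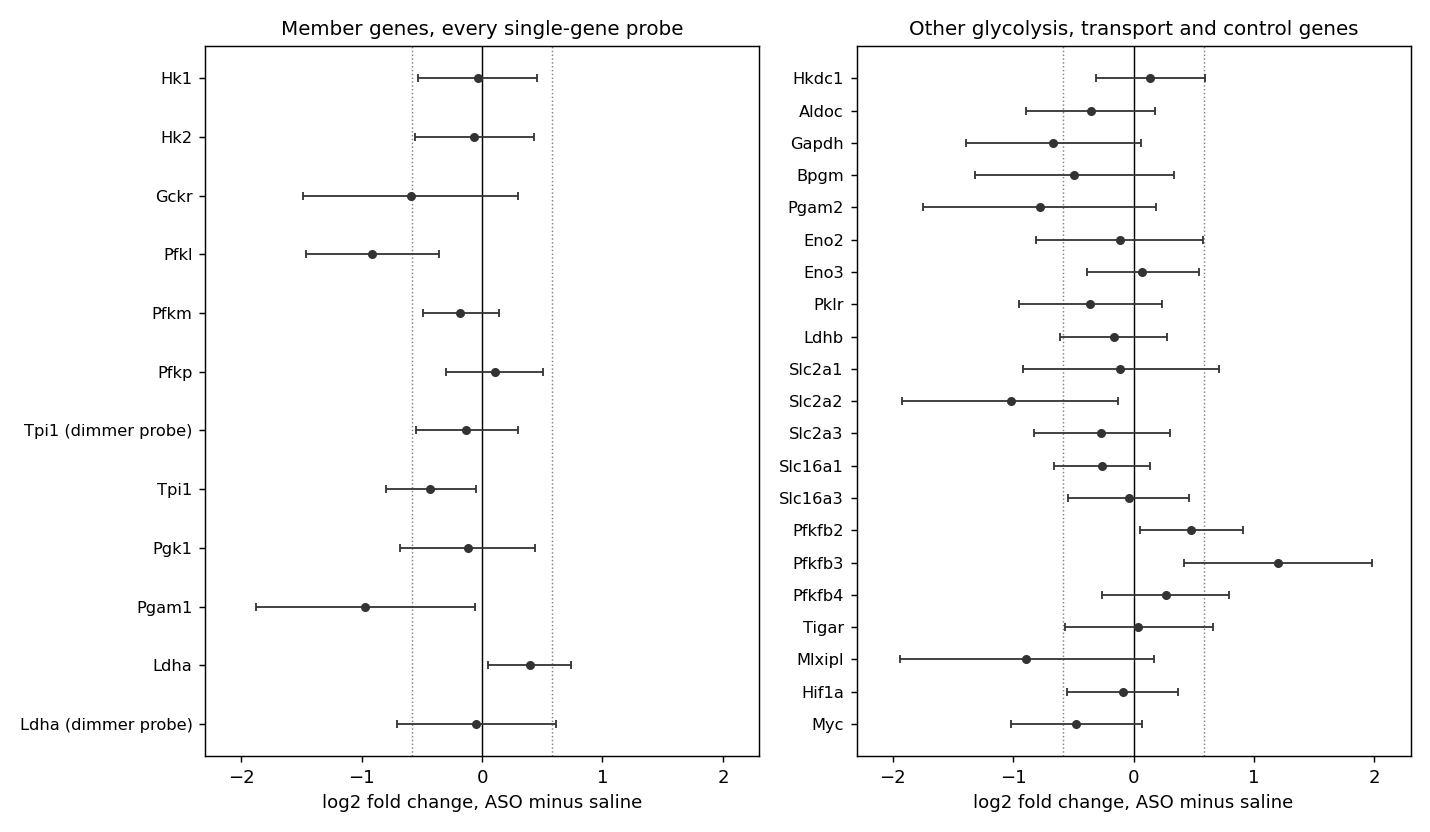
Log2 fold change, ASO minus saline, with its 95% confidence interval from limma, for the 12 member probes (left) and for the 21 other genes of the pathway by their brighter probe (right); dotted lines mark 1.5-fold. Intervals away from 0 are those of Pfkl, Tpi1, Pgam1 and Ldha on the left and of Slc2a2, Pfkfb2 and Pfkfb3 on the right.

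The first step showed small differences in the hexokinases and a wide spread in their liver regulator. Hk1, the hexokinase of most tissues, stood between 0.85 and 1.72 in saline and between 0.70 and 1.61 in ASO livers, and its log2 fold change was -0.03 ± 0.22 (SE, n = 5 per group, adjusted p = 0.973 in limma). Hk2, the insulin-responsive form of muscle and fat, ranged from 2.58 to 3.51 in saline and from 2.44 to 3.41 in ASO livers, and its log2 fold change was -0.07 ± 0.23 (SE, adjusted p = 0.942 in limma). The groups overlapped almost fully for both.

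Gckr, the regulatory protein, stood at 4.76, 4.52, 4.32, 4.43 and 3.84 in saline replicates 1 to 5 and at 4.53, 2.15, 3.56, 4.13 and 4.53 in ASO replicates 1 to 5. ASO replicate 2 was the lowest of the 10 mice, and 3 of the other ASO values lay within the saline range. The log2 fold change was -0.59 ± 0.41 (SE, limma adjusted p = 0.613). It became -0.50 without saline replicate 1 and -0.19 without ASO replicate 2. The spread of Gckr in ASO livers (SD 0.99) was wider than in saline (SD 0.34).

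Among the phosphofructokinases, the liver form had the largest difference. Pfkl stood at 3.03, 2.31, 2.40, 2.70 and 2.43 in saline replicates 1 to 5 and at 2.06, 0.87, 2.15, 1.66 and 1.58 in ASO replicates 1 to 5. Every ASO liver lay below every saline liver, with ASO replicate 2 the lowest. The means were 2.58 ± 0.29 and 1.66 ± 0.51 (SD, n = 5 per group), 1.88-fold higher in saline, and the log2 fold change was -0.91 (95% interval -1.46 to -0.36). It had the smallest adjusted p of the 12 probes and still did not pass (limma adjusted p = 0.244, and 0.132 to 0.510 over the alternatives). Without saline replicate 1, the highest for Pfkl, the log2 fold change was -0.80 (limma adjusted p = 0.510).

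Pfkm, the muscle form, had the tightest values of the 10 genes, each taken by its brighter probe. It stood at 3.67, 4.00, 3.99, 3.85 and 3.97 in saline replicates 1 to 5 and at 3.72, 3.80, 3.74, 3.79 and 3.55 in ASO replicates 1 to 5. Saline replicate 1 lay among the ASO livers while the other saline livers lay above them. The log2 fold change was -0.18 ± 0.14 (SE, limma adjusted p = 0.668), and -0.06 under quantile normalization. Pfkp, the platelet form, ranged from 2.21 to 2.88 in saline and from 2.25 to 2.72 in ASO livers, and its log2 fold change was 0.11 ± 0.18 (SE, adjusted p = 0.863 in limma), with 0.05 to 0.23 when an array was left out, the ends being those without ASO replicate 4 and saline replicate 2.

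Whether the isoforms moved unequally was tested within each mouse, as the log2 value of the Pfkl probe minus that of another isoform. These differences between probes say nothing of which isoform was more abundant. Pfkl minus Pfkm went from -1.32 ± 0.43 in saline to -2.06 ± 0.53 in ASO livers (SD, n = 5 per group), a difference of -0.73. Pfkl minus Pfkp went from 0.18 ± 0.49 to -0.84 ± 0.40, a difference of -1.02. Both differences passed an exact two-sided permutation test adjusted over the pair (adjusted p = 0.0317 each, where the smallest raw p the design allows is 0.00794). Because Pfkl was already known to be low in ASO livers when this test was set, it is not independent support for that or for unequal movement. The adjustment covers the pair only and takes no account of that knowledge. Pfkl alone had a log2 fold change of -0.91, beside -0.18 for Pfkm and 0.11 for Pfkp, so both differences mostly restate that of Pfkl. The Pfkm comparison lost its call without saline replicate 1 (exact adjusted p = 0.0714), saline replicate 4 (0.0714), saline replicate 5 (0.0635) or ASO replicate 2 (0.0873), and the Pfkp comparison without ASO replicate 2 (0.0634).

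**Figure D2:**
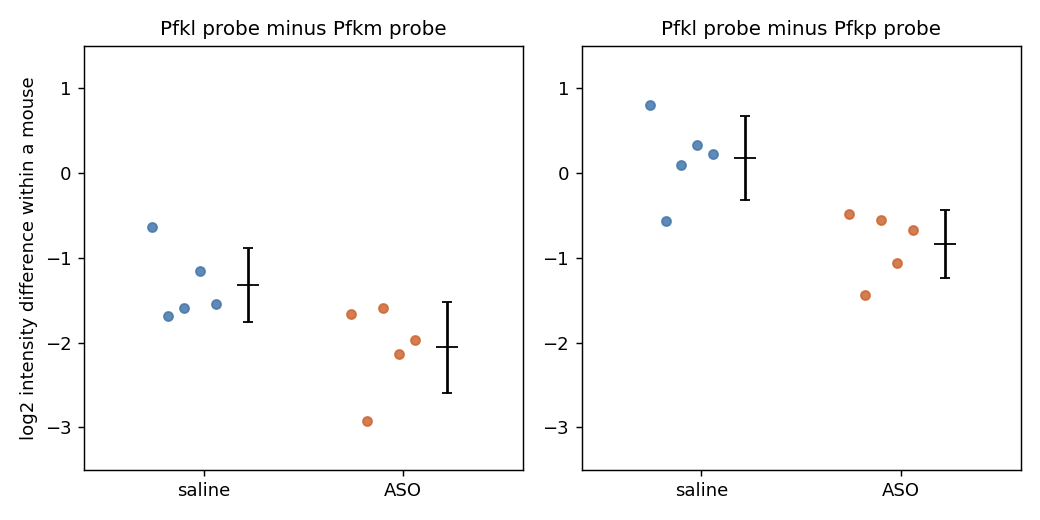
Within-mouse difference of log2 intensity between the Pfkl probe and the Pfkm probe (left) or the Pfkp probe (right) in 5 saline and 5 ASO mice; points are mice and bars are mean ± SD. ASO mice lie lower on average in both panels, from -2.93 to -1.60 on the left and from -1.44 to -0.49 on the right, and each range overlaps that of saline.

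Of the enzymes between the sugar phosphates and pyruvate, Pgam1 had the largest difference and the widest spread. Pgam1, phosphoglycerate mutase, stood at 7.55, 7.06, 7.26, 6.31 and 6.38 in saline replicates 1 to 5 and at 6.11, 6.44, 5.44, 4.67 and 7.05 in ASO replicates 1 to 5. ASO replicate 5 lay beside the higher saline livers, and the other ASO livers lay below or beside the lower ones. The log2 fold change was -0.97 ± 0.42 (SE, 95% interval -1.88 to -0.06, limma adjusted p = 0.418), and -0.65 without ASO replicate 4.

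Tpi1, triosephosphate isomerase, was lower on average in ASO livers at both of its probes as deposited. The brighter probe stood at 3.39, 3.52, 3.40, 3.40 and 3.06 in saline replicates 1 to 5 and at 2.60, 3.13, 2.73, 3.09 and 3.08 in ASO replicates 1 to 5, so that saline replicate 5 alone of its group lay within the ASO range. Its log2 fold change was -0.43 ± 0.17 (SE, limma adjusted p = 0.387), and -0.30 under quantile normalization. The dimmer probe ranged from 1.73 to 1.90 in saline and from 1.22 to 2.10 in ASO livers, and its log2 fold change was -0.13 ± 0.19 (SE, adjusted p = 0.840 in limma) and turned to 0.01 under quantile normalization.

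Pgk1, phosphoglycerate kinase, the first ATP-yielding step, ranged from 7.32 to 8.06 in saline and from 6.92 to 8.06 in ASO livers. The log2 fold change was -0.12 ± 0.26 (SE, limma adjusted p = 0.895). ASO replicates 4 and 5, at 6.97 and 6.92, lay below all saline livers, and the other ASO livers lay between 7.51 and 8.06.

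Ldha, the lactate dehydrogenase subunit that favours lactate formation, had the larger of the 2 positive log2 fold changes among the members. Its bright probe stood at 8.28, 8.35, 8.44, 8.56 and 8.07 in saline replicates 1 to 5 and at 8.54, 8.71, 8.91, 8.87 and 8.64 in ASO replicates 1 to 5. The groups overlapped only between saline replicate 4 and ASO replicate 1. The means were 8.34 ± 0.18 and 8.74 ± 0.15 (SD, n = 5 per group), a 1.32-fold higher intensity in ASO livers with a 95% interval of 1.04 to 1.67-fold (limma adjusted p = 0.381, and 0.211 to 0.636 over the alternatives). The log2 fold change of 0.40 was 0.38 without saline replicate 1, the array with the low ceiling, on which Ldha lay below that ceiling. A second Ldha probe was at or near the floor, with 4 saline and 3 ASO livers on it, and says nothing of the direction.

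**Figure D3:**
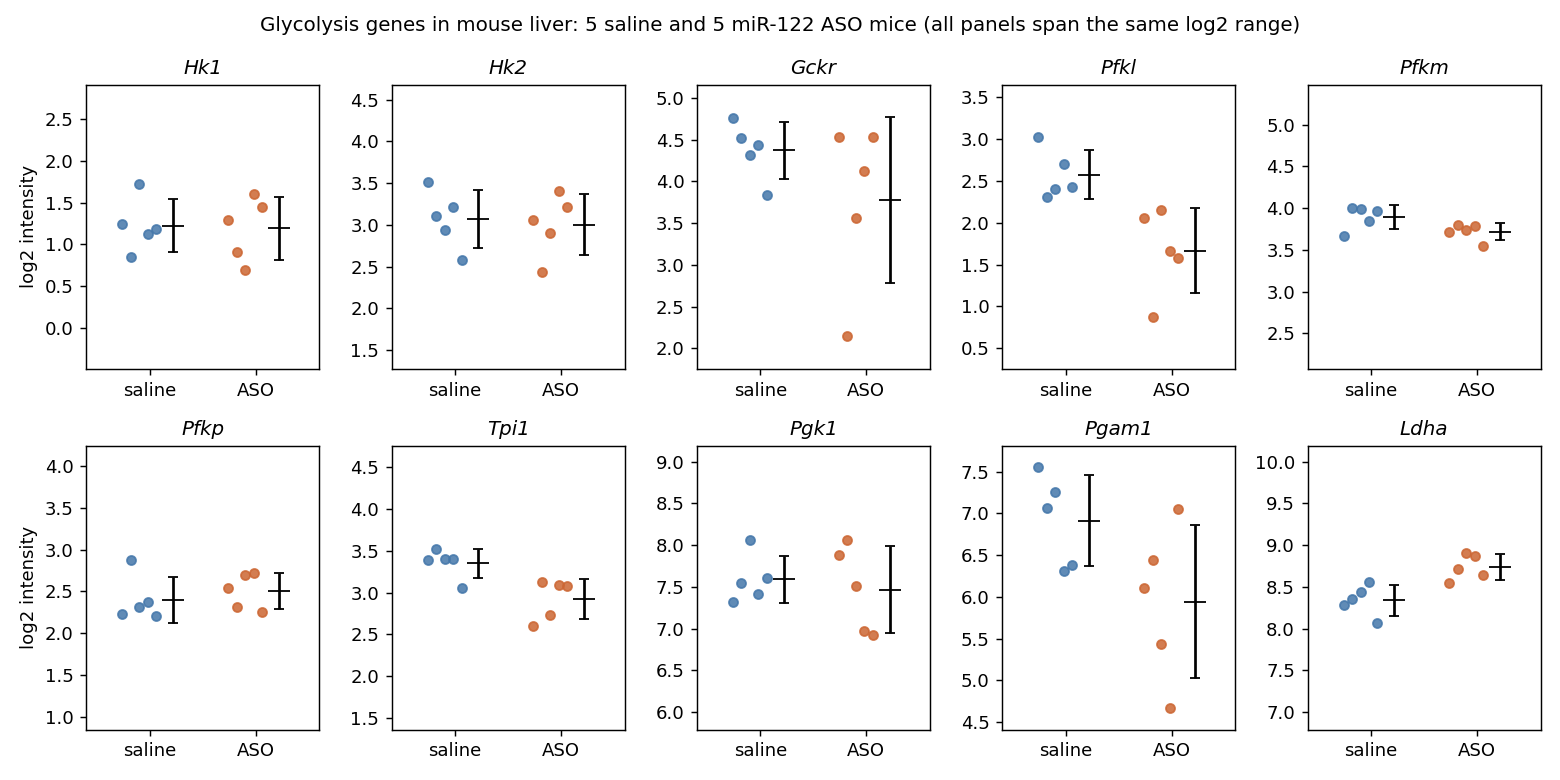
Log2 intensity of the 10 genes by mouse, each by its brighter probe, for 5 saline (blue) and 5 ASO (orange) livers; points are mice, bars are mean ± SD, and panels have different offsets and the same span. The groups separate fully for Pfkl and overlap in the other panels, least of all for Ldha.

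The intervals differed in width, and with them what could be seen. For 4 genes, Hk1, Hk2, Pfkm and Pfkp, the 95% interval lay within 1.5-fold in both directions, the size named in the design text of the study. For Gckr (-1.49 to 0.30) and Pgk1 (-0.68 to 0.44) it reached past 1.5-fold on the lower side, so a decrease of that size was neither shown nor outside the interval at this number of mice. Among saline mice, replicate 5 was the lowest of its group in 5 of the 10 genes (Hk2, Gckr, Pfkp, Tpi1 and Ldha). Among ASO mice, replicate 2 was the lowest in Hk2, Gckr and Pfkl and the highest in Pfkm, Tpi1 and Pgk1.

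**Figure D4:**
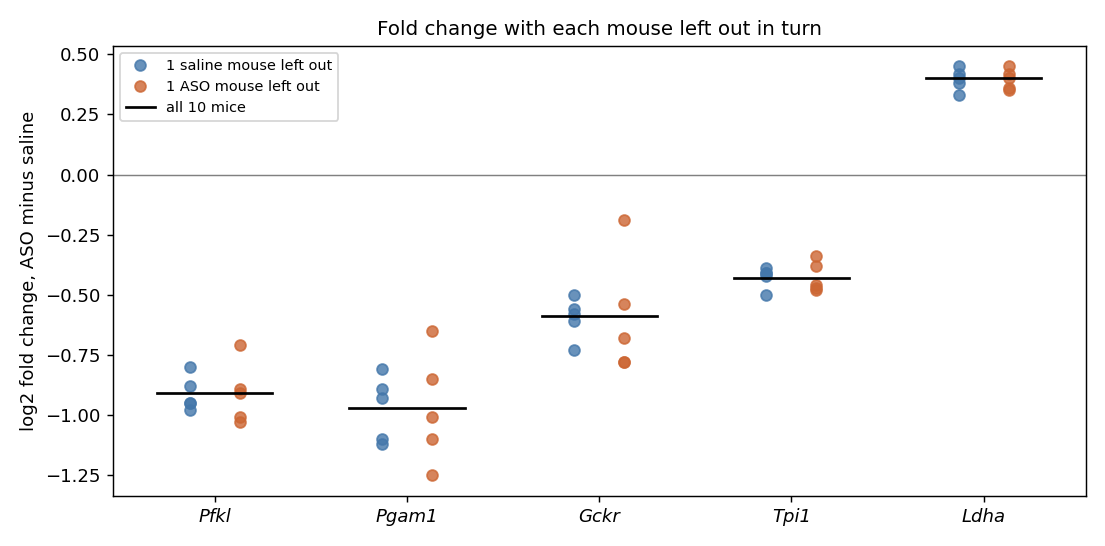
Log2 fold change, ASO minus saline, of 5 genes with all 10 mice (line) and with each saline (blue) or ASO (orange) mouse left out in turn. Pfkl stays between -1.03 and -0.71 and Ldha between 0.33 and 0.45, while Gckr ranges from -0.78 to -0.19.

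The remaining glycolysis enzymes were read from a list of 15 genes, of which 9 had a single-gene probe. The others were not analysed here. Of the 9 genes 7 were lower and 2 higher on average in ASO livers, where 9893 of all 18012 genes were lower. Their median log2 fold change was -0.35 beside -0.04 over all genes, and 0 passed at an adjusted or an unadjusted p under 0.05 in limma. The median was -0.16 with only probes above the median level, where 7 of the 9 remained, beside -0.08 over all such probes. Pklr, the liver pyruvate kinase, ranged from 2.40 to 3.72 in saline and from 2.16 to 3.23 in ASO livers, and its log2 fold change was -0.36 ± 0.27 (SE, adjusted p = 0.648 in limma). Leaving out saline replicate 1 gave -0.22, saline replicate 3 gave -0.55 and ASO replicate 3 gave -0.19. Gapdh had -0.67 ± 0.33 at a probe below the median level of all probes (means -0.47 and -1.14) and -0.20 ± 0.35 at its dimmer probe. Aldoc had -0.35 ± 0.24, Bpgm, which makes the bisphosphoglycerate of red cells, -0.49 ± 0.38, and Ldhb, the heart subunit of lactate dehydrogenase, -0.16 ± 0.20. Aldoc was -0.53 without saline replicate 2 and -0.21 without saline replicate 5, and Bpgm was -0.25 without ASO replicate 1 and -0.76 without ASO replicate 3. Ldhb was -0.28 without saline replicate 1, -0.10 without saline replicate 2, -0.26 without ASO replicate 1 and -0.04 without ASO replicate 3. Pgam2, the muscle mutase, had -0.78 ± 0.44, and -0.33 without saline replicate 5, where it stood at 0.68 against -2.07 to -1.07 in the other saline livers.

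Glucose transport and control genes, from a list of 13 with 12 measured, were each taken by the brightest probe. At an unadjusted p under 0.05 in limma 2 were higher and 1 lower, and 0 passed the adjusted threshold. The unadjusted background was 11.2% of all probes (4.58% higher and 6.66% lower). It was 14.1% of probes above the median level, where 9 of the 12 genes lay. Of all 18012 genes 758 were higher and 1487 lower at that p. The list was chosen with earlier results of these data known. The count of 3 in the list was 1 without saline replicate 1 or ASO replicate 4. Of the 12 genes 4 were higher and 8 lower, where 9893 of all 18012 genes were lower. The median log2 fold change was -0.10, beside -0.04 over all genes. It lay between -0.22 and 0.02 with an array left out and at 0.03 under quantile normalization. Slc2a2, the main glucose transporter of hepatocytes, stood at 5.25, 4.43, 4.11, 3.48 and 3.54 in saline replicates 1 to 5 and at 3.78, 2.82, 3.25, 2.02 and 3.83 in ASO replicates 1 to 5, and its log2 fold change was -1.02 ± 0.41 (SE, adjusted p = 0.384 in limma). The ASO livers reached into the saline range through replicates 1 and 5. Saline replicate 1 held the highest value, and the log2 fold change was -0.75 without it and -0.74 without ASO replicate 4.

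Pfkfb2 and Pfkfb3 encode enzymes that make the sugar bisphosphate activating phosphofructokinase, and both were higher on average in ASO livers. Pfkfb3 stood at 0.00, -0.21, -1.28, -1.97 and -0.43 in saline replicates 1 to 5 and at 0.14, 0.08, 0.37, 0.62 and 0.91 in ASO replicates 1 to 5. No ASO liver overlapped the saline livers, although saline replicate 1 lay just below ASO replicate 2. The log2 fold change was 1.20 ± 0.36 (SE, limma adjusted p = 0.264), 0.90 without saline replicate 4, and 0.53 with a pseudocount of 1 in place of the floor. Pfkfb2 had 0.48 ± 0.20 at its brightest probe (SE, limma adjusted p = 0.395) and 0.33 ± 0.29 and 0.30 ± 0.19 at the others. Myc, a transcription factor of growing cells, had -0.48 ± 0.25, and -0.32 without ASO replicate 4.

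The genes whose values ran most like Pfkl over the 10 arrays, among 10191 named genes above the median level, were Clpx (Pearson r = 0.953, Spearman rho = 0.927), Abcd3 (0.946 and 0.915) and Aipl1 (0.941 and 0.927). Without the 2 arrays farthest from the Pfkl median, r was 0.856, 0.836 and 0.867. For Ldha they were Phc2 (0.908 and 0.927), Rgs5 (0.892 and 0.879) and Tspan8 (0.889 and 0.830), with r of 0.797, 0.735 and 0.764 without the 2 farthest arrays. These are the highest of many values, all measured on the same arrays and across both groups, and are given as a description with no test.

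Markers of other cells were set beside these values, and their part in the results was not tested. Skeletal muscle markers (7 of 7 measured) had a summed log2 level of 4.08 in saline replicate 5 against 1.96 to 2.45 in the other saline and 2.03 to 2.28 in ASO livers. On that array Pfkm (3.97) lay within the range of the other saline livers, and without it Pfkl was at -0.95 and Pgam1 at -1.10. Lymphocyte markers (7 of 8 measured) summed to 3.40 to 3.89 in saline and 3.23 to 3.40 in ASO livers, with Cd3e near the floor. Red blood cell markers (3 of 7 measured) summed to 5.65 to 6.69 in saline and 4.99 to 6.43 in ASO livers. This sum was mostly that of Alas2 (means 6.25 and 5.74), beside Slc4a1 (-0.31 and -0.04) and Epb42 (-0.05 and 0.07). Alas2 was lowest in ASO replicate 2 (4.90), Slc4a1 in saline replicate 1 (-0.80) and Epb42 in saline replicate 3 (-0.49). Kupffer cell and macrophage markers (6 of 8) summed to 6.45 to 7.73 and 5.42 to 7.61. Both sums were lowest in ASO replicate 2, the mouse with the lowest Pfkl and Gckr. Endothelial markers (5 of 5 measured) also had their lowest sum in that mouse, at 4.89 against 5.84 to 6.70 in the other ASO livers. Stab2 (4.66) and Kdr (1.52) were lowest of all livers there, while Cdh5 (-0.60) and Clec4g (-0.88) were highest. Pecam1 was at -1.55 there, above saline replicate 4 (-2.17). The sum of stellate cell markers was also lowest in ASO replicate 2, at 6.66, and that of hepatocyte markers highest, at 12.65. Not every marker followed its sum: Dcn was lower in ASO replicate 3 (4.94) and Ttr higher in ASO replicate 5 (10.70). The sums of lymphocyte, neutrophil, bile duct, muscle and adipocyte markers were lowest in other mice. The ranges of neutrophil (2.81 to 3.18 and 2.86 to 3.25) and stellate cell (6.87 to 7.45 and 6.66 to 7.41) markers overlapped between saline and ASO livers, as did those of bile duct (2.45 to 2.86 and 2.22 to 2.72) and adipocyte (-0.57 to 2.47 and -0.31 to 0.21) markers.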

How the data were processed

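Liver RNA of 10 mice was measured on 1-colour CodeLink arrays with biotin-labelled target, per the labels' protocols. The deposited values are spot intensities on a linear scale, already at a common median and with some values at or below 0. For the scanner software, background subtraction and scaling, the sources used here give nothing. A floor was set at the 10th percentile of positive values (0.193) before log2 was taken. Probes with fewer than 3 values in a group were left out (139 of 36227). ASO minus saline was fitted per probe with limma 3.58.1 in R 4.3.3 (lmFit, eBayes, no covariates), two-sided, adjusted by Benjamini-Hochberg over all tested probes. The fit was tested on simulated data. Genes were named from single-gene probes of the platform annotation. A gene stands for its brighter probe.

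The members and lists were chosen with earlier results of these data known. All members were named, with the 6 other glycolysis genes and 4 control genes of smallest p, and the liver forms Pklr and Slc2a2. Promoter sequences are from RefSeq, with all 10 genes matched by symbol. The other settings tried were array weights, eBayes with trend and robust, quantile normalization, leaving out each array, a pseudocount of 1 or no floor, a filter at the median level, the gene mean over its probes and, added after seeing the data, cyclic loess. Each array held the RNA of 1 liver, per the series' design text, so the mouse is the replicate.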

Additional observations from a re-analysis of the deposited data

Results flagged for a closer look

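Of 44 groups of 5 values examined, 5 held a value set far apart from the others of its group by Dixon's test, which marks about 1 group in 20 by chance. The Pfkp value of saline replicate 2 was 2.88 against 2.21 to 2.37 in the other saline livers. The brighter Tpi1 probe was at 3.06 in saline replicate 5 against 3.39 to 3.52, and the dimmer Tpi1 probe was at 1.90 in the same mouse against 1.73 to 1.77, so the probes of this gene departed in opposite directions there. At the dimmer Ldha probe, saline replicate 4 was at -1.0 with the others on the floor of -2.38, and ASO replicate 2 was at -1.44 against -2.38 to -2.20. With 4 saline and 3 ASO values of that probe on the floor, the chance rate of the test does not apply to either group.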

How the results depend on the processing

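None of the 12 member probes passed the adjusted threshold in limma under any alternative run. The 4 at an unadjusted p under 0.05 became 2 under quantile normalization, 2 with eBayes with trend and robust, and 1 to 4 with an array left out. Pfkl, Pgam1, Gckr, the brighter Tpi1 probe, Ldha, Pfkm and Pfkp kept their direction under all alternatives run. Hk1 (-0.03) was 0.06 under quantile normalization, 0.04 under cyclic loess and -0.14 to 0.09 with an array left out. Hk2 (-0.07) was 0.06, 0.06 and -0.19 to 0.07. The dimmer Tpi1 probe was 0.01 under quantile normalization, Pgk1 was -0.27 to 0.02 and the dimmer Ldha probe -0.23 to 0.22 with an array left out. Over all probes the 23 calls were 7 with no floor, 73 with only probes above the median level, 42 with eBayes with trend and robust, 39 under cyclic loess and 0 to 16 with an array left out, and the 4057 at an unadjusted p under 0.05 were 2587 with only probes above the median level. The other glycolysis genes had a median of -0.16 with only probes above the median level. Of them 1 had an unadjusted p under 0.05 with array weights, under cyclic loess and with the mean over a gene's probes, and 0 to 1 with an array left out, while the transport and control genes had 1 to 4. Pfkl minus Pfkm was -0.85 to -0.51 and Pfkl minus Pfkp -1.20 to -0.86 with an array left out. The causes were not tested. With a pseudocount of 1 in place of the floor, the brighter Gapdh probe and the Pfkfb3 probe, both dim, were at -0.22 and 0.53. The dimmer Ldha probe, mostly on the floor, gives no direction. No paired analysis was run, because the labels match no ASO mouse to a saline mouse. The replicate numbers used here follow the order of the sample titles and link no mice between the groups.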

Other observations

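Several skeletal muscle genes and Adipoq were highest of all livers in saline replicate 5. Acta1, skeletal actin, stood at 2.48 there against -2.38 to -1.13 in the other saline livers and -2.38 to -1.67 in ASO livers. Tnnt3, a fast muscle troponin, stood at 1.13 against -1.88 to -0.76 and -1.05 to -0.17, and Pvalb, parvalbumin, at 0.60 where all ASO livers and 3 of the other saline livers were on the floor. Adipoq, the adipocyte hormone adiponectin, stood at 2.41 against -1.05 to -0.19 in the other saline livers and -0.70 to -0.06 in ASO livers. Lep, the other adipocyte marker measured, was on the floor in that mouse and above it in ASO replicates 4 and 5 (-1.50 and -1.71). The muscle gene Actn3 stood at -1.69 in saline replicate 5, below ASO replicates 2 and 4 (-1.52 and -1.55), and the second Myh4 probe at -1.34, below ASO replicate 4 (0.13).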
